A study of Caenorhabditis elegans with 4 samples.

Results

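The srh and sri genes of Caenorhabditis elegans encode chemoreceptor-type membrane proteins, and 223 of them were measured here in wild-type larvae of the L3 stage, which are not yet sexually mature. They were chosen by name, as every gene whose symbol begins with srh or sri and a number. The 2 prefixes gave 174 srh and 49 sri genes, among 19943 genes and unnamed probes tested in all. All 223 had a value on at least 3 arrays, so none was lost to the filter on missing values. RefSeq lists 292 srh genes, 72 of them pseudogenes, and 78 sri genes, 17 of them pseudogenes, in assembly WBcel235, and those with no probe of their own are not analysed here. Of the measured members, 6 srh genes are annotated as pseudogenes, and sri-62 kept the symbol of the older probe annotation because its Entrez number had no match.

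Chemoreceptors of this kind are G protein-coupled receptors that sit in the cilia of sensory neurons and bind odours, tastes or pheromones. The srh and sri families belong with str, srj and srd to the Str superfamily, which has expanded in nematodes into many similar genes, often side by side on chromosome V. A single sensory neuron can express many such receptors, and a given receptor gene is typically active in only a few of the cells of the animal. The receptors signal through G alpha proteins such as ODR-3 to cyclic nucleotide-gated or TRPV channels, and ODR-4 helps to carry some of them to the cilium.

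RNA of L3 worms was set against a mixed reference RNA on 2-colour arrays. There were 4 arrays, each with 1 numbered wild-type L3 preparation in the second channel and the wild-type mixed reference in the first. No treatment or mutant is labelled, the labels do not say which RNAs make up the reference, and nothing states that the preparations are separate cultures. The p-values therefore cover the variation among the 4 preparations alone, possibly technical, and leave out that of the reference.

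Values are log2 ratios of the 2 channels, centred on the median of each array, where 1 stands for a 2-fold difference. Positive values likely mean more transcript in L3, a direction taken from the order of names in the descriptions and not from labelled dyes. Means are given ± SD over the preparations, with n = 4 unless stated. Spot intensities were not analysed here. A transcript at equal level in both RNAs and a spot with little signal in both channels therefore cannot be told apart. In whole-animal RNA, fewer cells of a type and less RNA per cell cannot be told apart either.

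Few srh or sri genes differed between L3 and the reference beyond the spread of the preparations. In limma, with Benjamini-Hochberg adjustment over all 19943 features and a threshold of 0.05, 2 of 174 srh genes passed on the high side and 0 on the low side. None of the 49 sri genes passed in either direction. The share called among all features was 19.1%, with 8.31% higher and 10.8% lower in L3. At an unadjusted p under 0.05, 24 srh genes lay higher and 1 lower, which is 13.8% and 0.575% of the family against 16.9% and 18.3% of all features. For sri, 3 genes lay higher and 2 lower at that level. Together these were 25 of 174 and 5 of 49 genes, against 35.1% of all features.

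Most members had mean ratios close to 0, on the high side of it more often than on the low side. The median over srh genes was 0.19, with the middle of the family between 0.01 and 0.46 (the 25th and 75th percentiles), while the median of all features was 0.02. The sri median was 0.05, with the corresponding percentiles at -0.03 and 0.26. Mean ratios above 0 were found for 134 srh genes (77.0%) and 33 sri genes (67.3%), against 51.6% of all features. The mean lay within 0.5 of 0, which is less than a 1.41-fold difference, for 133 srh genes (76.4%) and 44 sri genes (89.8%), against 64.4% of all features. The 95% confidence interval of the mean, taken from limma without adjustment, lay wholly inside a 2-fold difference in either direction for 128 srh genes (73.6%) and 44 sri genes (89.8%), against 63.4% of all features.

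**Figure D1:**
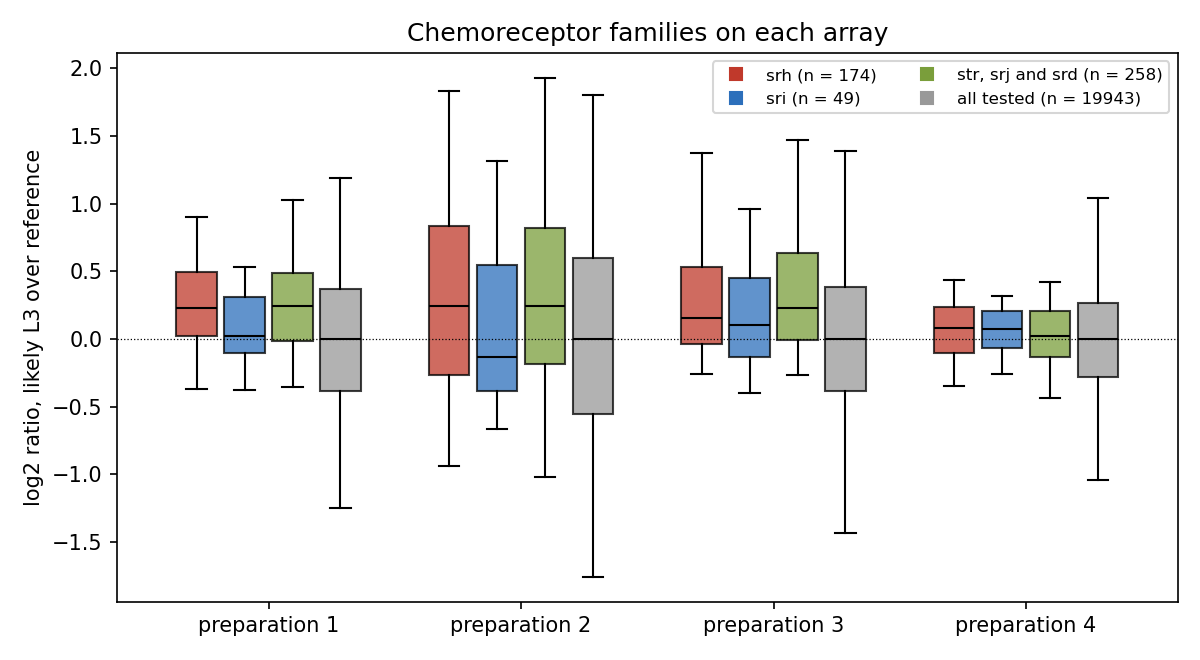
Log2 ratios, likely L3 over reference, of srh genes, sri genes, the related str, srj and srd genes, and all features tested, on each of the 4 arrays. Boxes span the 25th to 75th percentiles with the median as a line, and whiskers reach the 5th and 95th percentiles. The srh medians lie slightly above 0 on each array, and boxes are narrowest in preparation 4.

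The family medians differed between preparations. The srh median was 0.23, 0.24, 0.15 and 0.08 in preparations 1 to 4, above 0 on each array. The sri median was 0.03, -0.13, 0.11 and 0.08, so it changed sign between arrays, and the difference between the families was not tested. The spread of the families also differed, as the plot of the families on each array shows. The range between the 25th and 75th percentiles of srh genes was 0.48, 1.10, 0.56 and 0.34 in preparations 1 to 4, against 0.75, 1.15, 0.77 and 0.55 for all features. In preparation 2 the srh range came close to that of all features, and in the others it was clearly smaller.

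The titles of the arrays place preparations 1 and 2 in 1 month and preparations 3 and 4 in another, and both months hold L3 only. Within preparations 1 and 2 the srh median was 0.24 and the sri median 0.13, and within preparations 3 and 4 they were 0.15 and 0.07. In each of these fits 1 srh gene passed and no sri gene did. It was srh-277 in preparations 1 and 2 and srh-275 in preparations 3 and 4, and neither passed with all preparations. The shares of all features called in the month fits are not given here, so these counts are not compared between months.

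The order of the members was poorly shared between arrays. Pearson correlations over srh and sri genes lay between 0.024 and 0.216 for the 6 pairs of arrays, over 208 to 220 genes a pair. Over all features the same pairs gave 0.630 to 0.725. Both are descriptions across genes, which share arrays and the reference and are not independent replicates. Means of 2-fold or more in either direction were found for 2703 of all features and 5 of the 223 members, and a narrower range can lower such a correlation. Correlations were not computed for str, srj and srd genes, so the low values are not read as particular to srh and sri. Of 159 srh genes measured on all 4 arrays, 46 were higher on every array (28.9%, against 22.5% of all features) and 7 were lower on every array (against 23.7%). For sri these counts were 6 and 4 of 46.

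**Figure D2:**
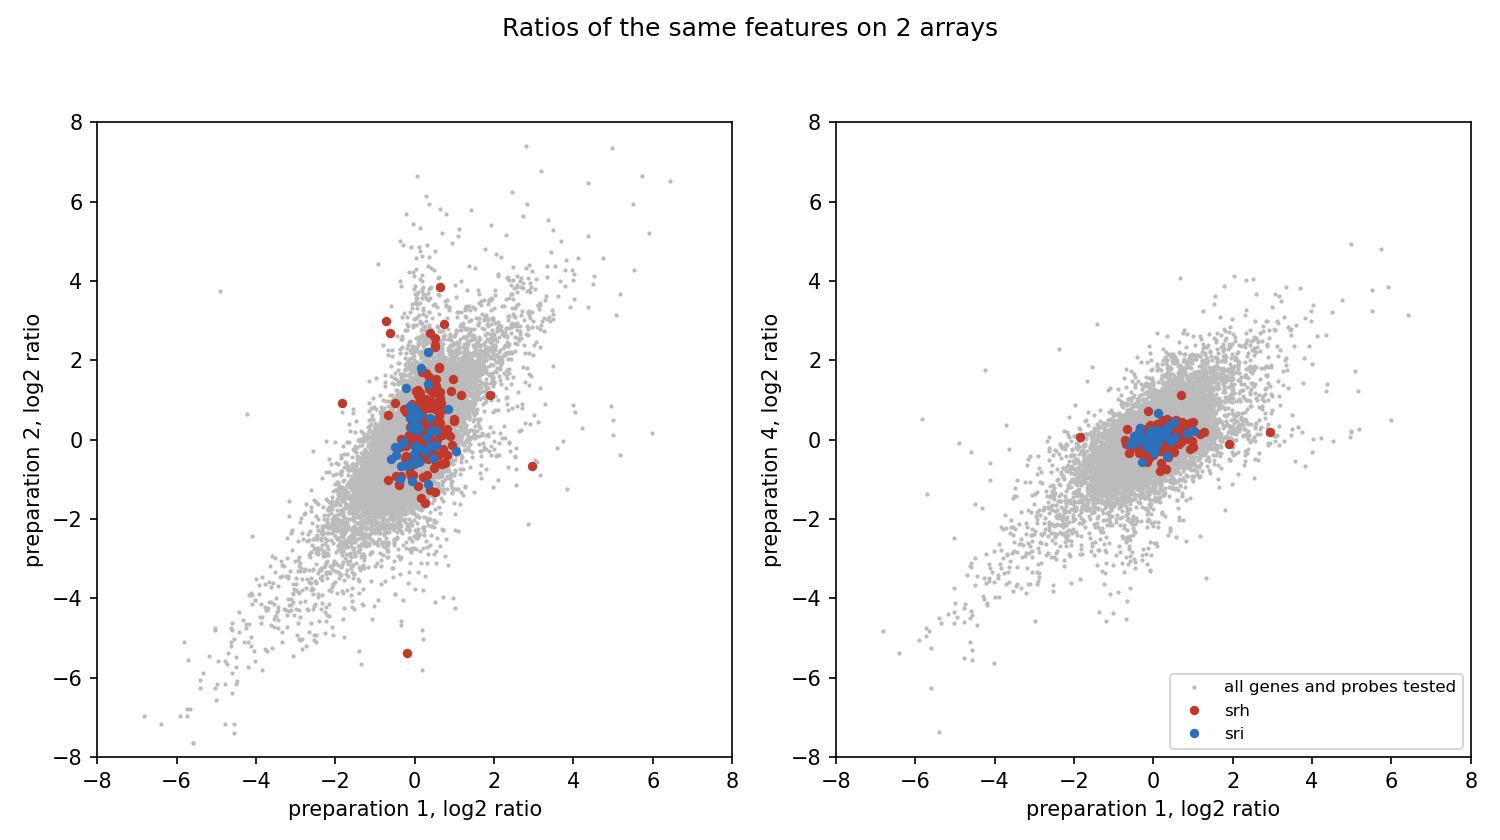
Log2 ratio of each feature in preparation 1 (x axis) against preparation 2 (left) and preparation 4 (right), with srh genes in red, sri genes in blue and all features tested in grey. The grey cloud is stretched along the diagonal, while the coloured points gather around 0, drawn out along the preparation 2 axis.

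The 2 srh genes that passed were srh-141 and srh-200, both on chromosome V. The gene srh-141 (T08G3.5) had log2 ratios of 0.53, 0.76, 1.48 and 0.47 in preparations 1 to 4. All 4 lay above 0, with preparation 3 the highest. Its mean was 0.81 ± 0.46, a 1.75-fold higher level in L3 (limma adjusted p = 0.0420, 95% confidence interval 0.30 to 1.31). The gene srh-200 (F07C4.13) had ratios of 0.61, 1.80, 1.17 and 0.30. Again all 4 lay above 0, with preparation 2 the highest and preparation 4 the lowest. The mean was 0.97 ± 0.66, or 1.96-fold higher (limma adjusted p = 0.0482, interval 0.34 to 1.61).

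The call of srh-141 was lost without any 1 preparation, and that of srh-200 without preparation 1, 2 or 3. The adjusted p of srh-141 was 0.0965, 0.0889, 0.113 and 0.0699 without preparations 1, 2, 3 and 4. That of srh-200 was 0.106, 0.0950, 0.143 and 0.0483, so its call was kept only without preparation 4. Within the months, srh-141 had a mean of 0.64 in preparations 1 and 2 and 0.97 in preparations 3 and 4 (adjusted p = 0.193 and 0.123), and srh-200 had 1.21 and 0.73 (adjusted p = 0.113 and 0.190). The direction was the same throughout. Fits on fewer preparations hold less data, and how many of all called features lose their call in them is not given here. The losses are therefore not read as particular to these genes. Each gene is represented by 1 probe, and since the families are similar in sequence, probes may hybridise to more than 1 member.

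Next in order of p, chosen after their values were seen, came srh-166 (0.54 ± 0.23), srh-293 (0.67 ± 0.42), srh-111 (0.74 ± 0.52), srh-74 (0.63 ± 0.39) and sri-66 (0.46 ± 0.14), with limma adjusted p-values from 0.0584 to 0.0713. All 5 were above 0 on 4 of 4 arrays, and none passed in this fit. With scaled arrays srh-293 and srh-111 passed, and after quantile normalization srh-293, srh-111 and srh-166 did. With the array month as a block srh-293, srh-111, srh-166 and srh-74 passed. The correlation within the blocks was negative (-0.117), which tends to lower p-values and leaves these means unchanged. The count of str genes on the high side rose too, from 4 to 7, 9 and 8 in these fits in turn. The shares of all features called in them are not given here, so the calls are not read as particular to these genes. The values of sri-66 were the closest together of the 5, at 0.38, 0.54, 0.62 and 0.32 in preparations 1 to 4.

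**Figure D3:**
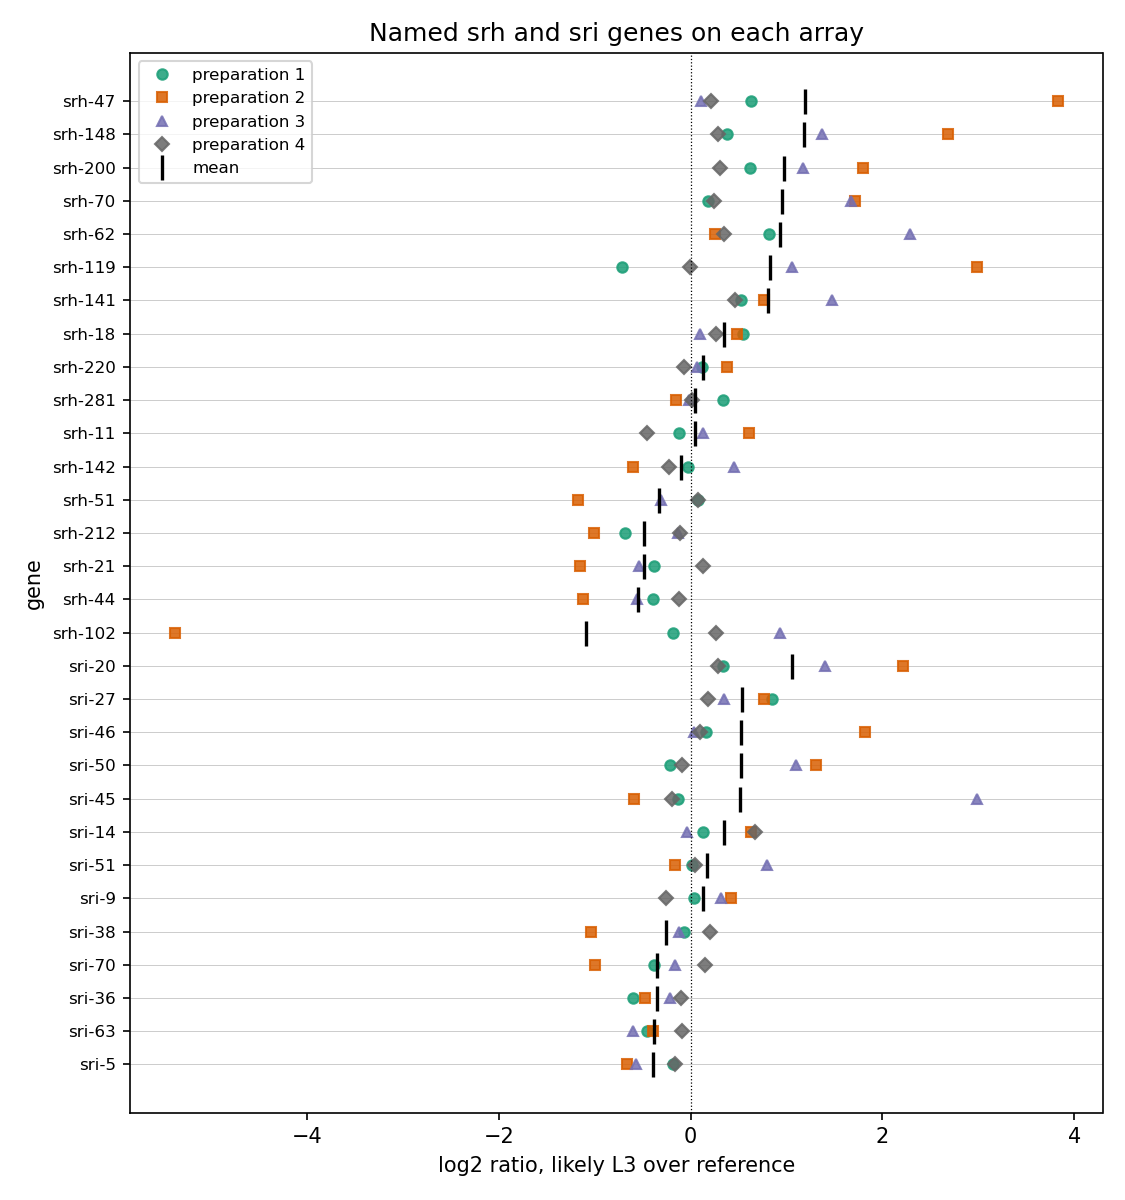
Log2 ratios, likely L3 over reference, of 30 named srh and sri genes (y axis), with 1 symbol for each preparation and a bar at the mean. The values farthest from 0 are those of preparations 2 and 3, such as 3.83 in srh-47 and -5.38 in srh-102.

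The members named here for a known place in the nervous system had means within 0.5 of 0. The gene srh-220, expressed in ADL, a head neuron pair that senses pheromones and repellents, had ratios of 0.11, 0.38, 0.07 and -0.07 in preparations 1 to 4. Its mean was 0.13 ± 0.19 (limma adjusted p = 0.586, interval -0.24 to 0.49). The gene srh-142, expressed in the serotonergic sensory neuron ADF, had -0.02, -0.60, 0.45 and -0.22, on both sides of 0. Its mean of -0.10 ± 0.44 had an interval from -0.59 to 0.39 (adjusted p = 0.757). The gene sri-14, which in the nociceptor ASH acts in avoidance of concentrated diacetyl, had 0.12, 0.62, -0.04 and 0.67, with a mean of 0.35 ± 0.35 (adjusted p = 0.227, interval -0.09 to 0.79). These intervals hold 0 and exclude a 2-fold difference, but a p that misses the threshold does not show equal levels. No probe named srh-234 was measured, and this gene is not analysed here.

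The other genes that had been listed by name also had means within 0.5 of 0. Their means were 0.35 ± 0.21 for srh-18, 0.04 ± 0.45 for srh-11, 0.05 ± 0.21 for srh-281, 0.18 ± 0.43 for sri-51 and 0.13 ± 0.31 for sri-9. Of these, only srh-18 was above 0 on all 4 arrays, at 0.55, 0.48, 0.10 and 0.26 (limma adjusted p = 0.162).

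The highest means among srh genes with 4 values rested on preparations 2 and 3. The gene srh-47 had 0.63, 3.83, 0.10 and 0.21 in preparations 1 to 4. Its mean of 1.20 ± 1.77 came from preparation 2 in the main, and without it the mean was 0.32. The gene srh-148 had 0.38, 2.68, 1.37 and 0.28, with a mean of 1.18 ± 1.12 (limma adjusted p = 0.0916), which was 0.68 without preparation 2. The gene srh-70 had 0.18, 1.71, 1.67 and 0.24, with a mean of 0.95 ± 0.86, and here preparations 2 and 3 stood apart from 1 and 4. The gene srh-62 had 0.82, 0.26, 2.28 and 0.35, with a mean of 0.93 ± 0.94, highest in preparation 3 and 0.47 on average without it. The gene srh-200, described above, was the other of these 5.

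Among sri genes the highest mean was that of sri-20, which had 0.33, 2.21, 1.40 and 0.29. Its mean was 1.06 ± 0.93 (limma adjusted p = 0.0794), and its 4 values lay above 0 in the same pattern as srh-148, with preparations 2 and 3 high. Without preparation 2 its mean was 0.67. The gene sri-27 had 0.85, 0.76, 0.35 and 0.18, with a mean of 0.53 ± 0.32 (adjusted p = 0.0817), and preparation 4 was the lowest. In sri-46 the values were 0.16, 1.82, 0.03 and 0.10, so the mean of 0.53 ± 0.86 rested on preparation 2, and it was 0.10 without it. The gene sri-50 had -0.21, 1.31, 1.10 and -0.10, with a mean of 0.53 ± 0.79, which was 0.26 without preparation 2 and 0.33 without preparation 3. In sri-45 the values were -0.13, -0.59, 2.98 and -0.19, so that the mean of 0.52 ± 1.66 turned to -0.31 without preparation 3.

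Low means were shallower. The lowest srh mean was that of srh-102, with -0.18, -5.38, 0.93 and 0.26 in preparations 1 to 4. The mean of -1.09 ± 2.90, the largest SD of either family, came from preparation 2 alone, and without it the mean was 0.34. Among srh genes with 4 values, the other 4 lowest were srh-44 (-0.55 ± 0.42), srh-21 (-0.49 ± 0.53), srh-212 (-0.49 ± 0.44) and srh-51 (-0.33 ± 0.59). Of these, srh-44 and srh-212 were below 0 on every array, and in each of the 4 genes preparation 2 was the lowest. Without preparation 2 their means were -0.36 (srh-44), -0.27 (srh-21), -0.31 (srh-212) and -0.049 (srh-51). The third of the srh genes with the largest SD, srh-119, had -0.72, 2.99, 1.06 and -0.01 (0.83 ± 1.61). Its mean was 0.11 without preparation 2 and 1.34 without preparation 1.

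The 5 lowest sri genes with 4 values lay between -0.40 and -0.26. The gene sri-5 had -0.19, -0.66, -0.57 and -0.17 (-0.40 ± 0.26, limma adjusted p = 0.137). The gene sri-63 had -0.46, -0.39, -0.60 and -0.09 (-0.39 ± 0.21, adjusted p = 0.131). Both were below 0 on every array, as was sri-36 (-0.35 ± 0.23). The remaining sri-70 (-0.35 ± 0.49) and sri-38 (-0.26 ± 0.54) were above 0 in preparation 4, and without preparation 2 their means were -0.13 and 0.0043.

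**Figure D4:**
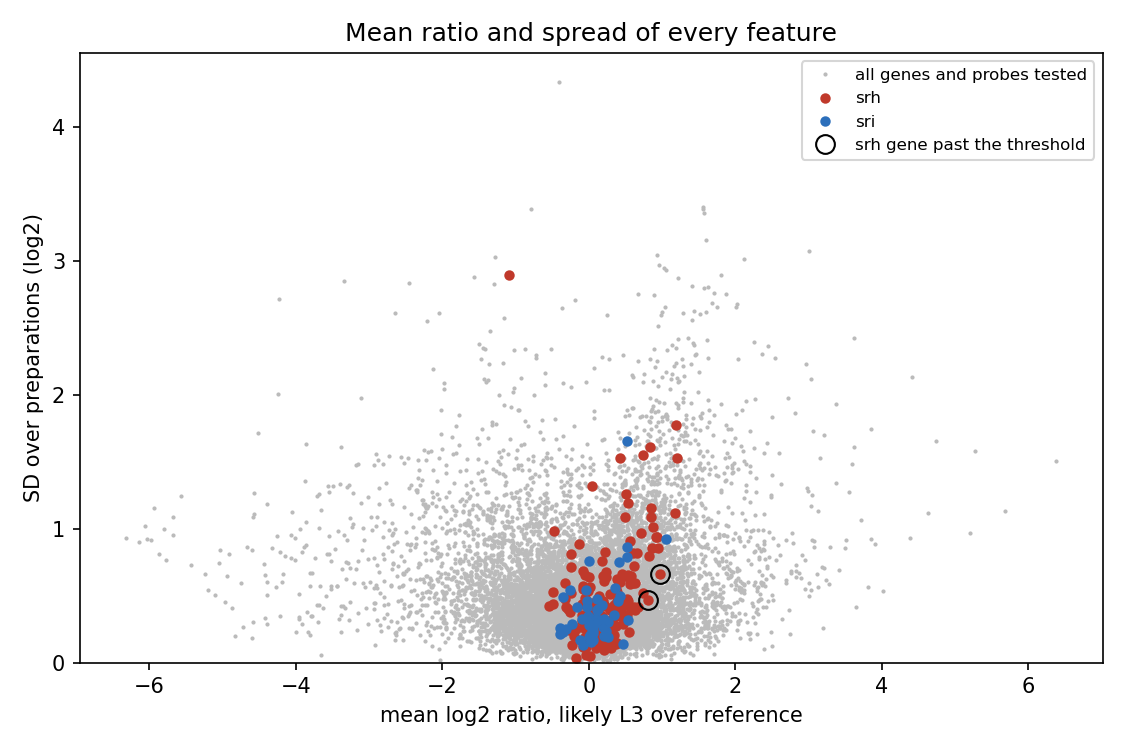
Mean log2 ratio over the preparations (x axis) and SD (y axis) of all 19943 features in grey, with srh genes in red and sri genes in blue. The 2 srh genes past the threshold are circled, at means of 0.81 and 0.97, and the red point with an SD of 2.90 is srh-102.

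With probes averaged per gene, values far from 0 were isolated. In all, 17 members had a log2 ratio beyond 2 in size, a difference of over 4-fold, on at least 1 array, and in each of the 17 this was on 1 array only. Among all features, 2207 had such a value, and 63.6% of these had it on 1 array only. Of the 17 values, 1 was in preparation 1, 11 in preparation 2, 5 in preparation 3 and 0 in preparation 4, and 16 of them lay above 0. The lone value below 0 was that of srh-102. Single probes could lie beyond 2 on 2 arrays where their gene's average did not. The first probe of srh-277 read 4.12 and 2.71 in preparations 1 and 2. The second probe of sri-50 read 2.96 and 2.22 in preparations 2 and 3. Preparation 2 had the most values of this size over all features too, 1538, against 663, 942 and 524 in preparations 1, 3 and 4.

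Missing values were most frequent in preparations 2 and 3. Among the 223 members, 2, 7, 8 and 1 had no value in preparations 1 to 4, which is 0.897%, 3.14%, 3.59% and 0.448%. The shares over all features were 0.537%, 1.77%, 1.16% and 0.261%. The 18 members with 3 values included the highest mean of either family, that of srh-113, with 0.73, 2.92 and -0.02 in preparations 1, 2 and 4 (1.21 ± 1.53, n = 3, limma adjusted p = 0.192).

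Where a gene had several probes, these often differed. There were 31 such members, 24 srh and 7 sri, and in 16 of them (51.6%) the means of all probes had the same sign, against 74.2% of 1448 named genes with several probes. The median distance between the highest and the lowest probe mean was 0.46, against 0.23 for those named genes. In 8 members (25.8%, against 10.8%) probes lay more than 2 apart on at least 1 array.

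The gene with the most distant probes was srh-277. Its first probe had 4.12, 2.71, 0.22 and 0.19 in preparations 1 to 4, high in preparations 1 and 2 only. The second had -0.31, -0.44, 0.83 and -0.39, so the gene's mean of 0.87 ± 0.86 joins probes that moved differently. In srh-132, 1 probe read 5.55 in preparation 2 while the other read -0.18. In sri-45, 1 probe read 6.14 in preparation 3 and the other -0.17. These 3 genes were picked for the distance between their probes after the values were seen, apart from sri-45, which is also among the highest means.

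Separate probes also disagreed where both were steady. The first probe of srh-274 had -0.54, -0.76, -0.57 and -0.59, below 0 on each array. The second had 0.70, 1.13, 0.21 and 0.24, above 0 on each array. Averaged per gene, srh-274 lay at -0.02 ± 0.18. When probes were tested singly, the first passed on the low side (mean -0.61, limma adjusted p = 0.0303), the only member probe to do so.

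**Figure D5:**
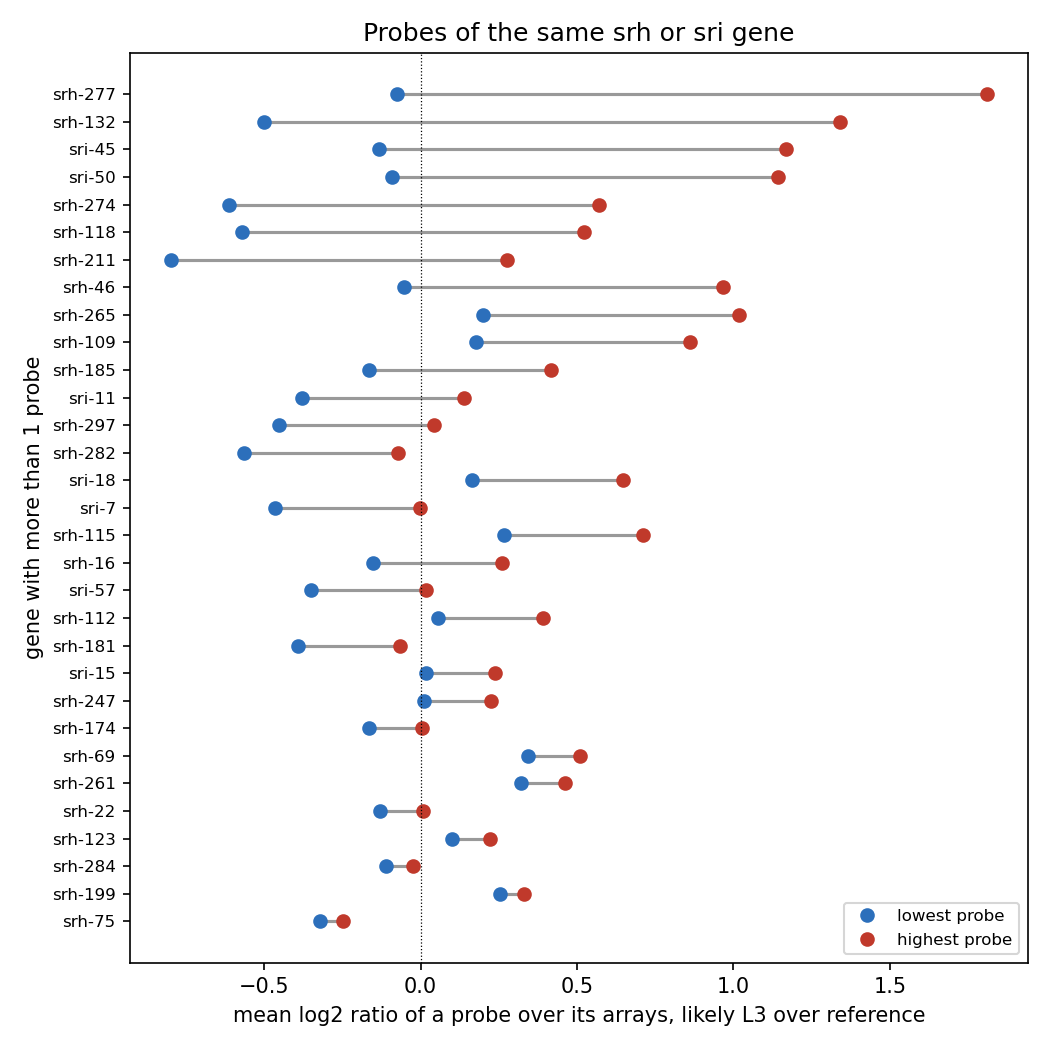
Mean log2 ratio of the lowest (blue) and highest (red) probe of each of the 31 srh and sri genes with more than 1 probe, joined by a line and ordered by their distance. The widest line is that of srh-277, and 15 of the lines cross 0.

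The members were spread over all 6 chromosomes. Chromosome V held 140 of the 174 srh genes, with a median of 0.22, and chromosome II held 22, with a median of 0.18. The 6 srh genes of chromosome IV, srh-220 among them, had a median of -0.02 and lay between -0.32 and 0.14. For sri, 21 genes lay on chromosome II (median 0.04), 18 on V (median 0.08) and 8 on I (median 0.18). Over 73 pairs of neighbouring members with at most 1 gene between them, the correlation of the mean ratios was -0.018, and 42 pairs had the same sign. Since 167 of the 223 members (74.9%) had means above 0, unrelated pairs would often share a sign too. These pairs share arrays and in part members, and no test was made of them. The longest runs of neighbours held 5 genes, such as sri-14, sri-13, sri-17, sri-16 and sri-15 on chromosome I, with means between -0.02 (sri-13) and 0.35 (sri-14).

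The 6 srh pseudogenes had means between -0.26 (srh-165) and 0.45 (srh-155), with a median of 0.23. None passed, against 19.1% of all features, and with 6 genes that count is too small to be read as a difference. Without them the srh median was 0.19.

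The other families of the Str superfamily gave counts of the same kind in the same fit. Of 164 str genes 4 were higher and 0 lower, of 36 srj genes 0 and 1, and of 58 srd genes 1 and 0, against 8.31% and 10.8% of all features. Their medians were 0.24, 0.16 and 0.22, close to the srh median and above that of sri, and the differences between the families were not tested. The genes that passed were str-1 (1.29 ± 0.77), str-162, str-13, str-220 and srd-63 on the high side and srj-20 (-0.65 ± 0.22) on the low side. Without preparations 1 to 4 in turn, 0, 1, 0 and 3 str genes passed on the high side, and no srj or srd gene passed. With scaled arrays, quantile normalization and the array month as a block, 7, 9 and 8 str genes and 2, 2 and 2 srd genes were higher. The shares of all features called in these fits, and in those of the lists below, are not given here.

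Few genes that act with these receptors passed. Of 45 measured genes of chemosensory transduction, G protein subunits, channels, cyclases and kinases, 1 was higher and 0 lower, against 8.31% and 10.8% of all features, with a median of -0.07. The higher one was gpa-12, a G alpha gene known from the defence response of the epidermis, at 1.33, 1.56, 0.88 and 0.48 in preparations 1 to 4 (1.06 ± 0.48, limma adjusted p = 0.0192), and its call was lost without preparation 1 or 3. Of 22 genes for receptor trafficking and for regulators of receptor genes none passed (median -0.18), though 6 were lower at an unadjusted p under 0.05, against 18.3% of all features. In this list 3 genes were lower with arrays scaled to 1 spread, 3 after quantile normalization and 2 with the array month as a block. The one furthest from 0 was ceh-36, a homeobox gene of the sensory neurons AWC and ASE, at -1.14 ± 1.02 (adjusted p = 0.0810).

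The medians of sensory cilium and general neuronal genes were below 0, though not on each array for the cilium genes. Cilium medians were -0.18, -0.39, -0.11 and 0.08 in preparations 1 to 4. Of 53 cilium genes 2 were lower and 0 higher, against 10.8% and 8.31% of all features (median -0.11), namely xbx-3 (-1.08 ± 0.57) and bbs-5 (-0.73 ± 0.25), the latter a subunit of the BBSome that carries proteins in cilia. The count was 0 without preparation 1 or 3 and 1 without preparation 2, and it was 4 with scaled arrays, 5 after quantile normalization and 4 with the block. Of 24 pan-neuronal genes 5 were lower and 0 higher, against the same 10.8% and 8.31%, with a median of -0.32 and preparation medians of -0.59, -0.49, -0.18 and -0.02. These 5 were the peptide-processing enzyme genes egl-3 (-0.98 ± 0.33) and egl-21 (-0.93 ± 0.31) and the synaptic vesicle genes snt-1 (-0.77 ± 0.17), sng-1 (-0.70 ± 0.17) and snb-1 (-0.56 ± 0.17). Without preparation 1 or 3 the count was 0, and without preparation 2 it was 3. The pan-neuronal median was thus below 0 on each array on which the srh median was above it, and any link between them was not tested.

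Markers of adult and oocyte tissue were far lower in L3 on the same arrays. All 17 measured genes of that list passed on the low side, with a median of -4.39 and preparation medians between -4.76 and -3.63, led by the yolk protein gene vit-5 at -6.32 ± 0.93. The part of such tissue in the ratios of srh and sri genes was not tested.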

How the data were processed

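The authors deposited log2 ratios of the 2 channels of 4 arrays. Their background correction, centring, spot filter and dyes were not given in the sources used here. Raised as powers of 2, at least 99.96% of the deposited log2 values of an array fell on multiples of 0.001 (within 0.02 of a step). Column medians were 0.02, 0.00, -0.03 and -0.01, so scale is settled, while centring method and direction are not. Probes were named from a platform annotation, 16450 of 21632 with 1 symbol, and updated by Entrez number to RefSeq WBcel235. Another 3 probes each paired with more than 1 srh gene were left out. No sequence was available for the probes or proteins.

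Arrays were centred on their median, probes averaged per gene, and features with 3 or more values tested with limma 3.58.1 in R 4.3.3 (lmFit, eBayes, intercept only, two-sided, Benjamini-Hochberg). The code was also run on simulated independent noise with planted changes. That run held no shared reference or month effect, and its outcome is not given here. The number of arrays limits the precision, and depth does not apply. Alternatives were values as deposited, scaled or quantile-normalized arrays, other filters, probe level, array month as a block or split, pseudogenes left out, and each preparation left out.

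The members and lists were chosen with earlier results of these data known. Named were all passing members, the 5 highest and 5 lowest means of each family with 4 values, the 3 largest SDs of each family, 9 genes by name, and up to 5 passing genes of each list or else the one furthest from 0.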

Additional observations from a re-analysis of the deposited data

Results flagged for a closer look

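Of 32 results examined (30 named genes and 2 family medians), 3 had 1 preparation far from the other 3, judged by its gap to the nearest of the others as a share of the whole range. Chance gives this for about 1 in 20 groups, but not for genes picked by their values. The 3 flagged genes were named for high means and large SDs, so this rate is no measure for them. In srh-47 preparation 2 read 3.83, and the others lay between 0.10 and 0.63. In sri-46 preparation 2 read 1.82, and the others lay between 0.03 and 0.16. In sri-45 preparation 3 read 2.98, and the others lay between -0.59 and -0.13. Among all 205 srh and sri genes with 4 values, 19 (9.27%) had such a preparation, against 6.52% of 19201 features. It was preparation 2 in 14 of the 19, preparation 3 in 2 and preparation 4 in 3.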

How the results depend on the processing

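The count of srh genes on the high side, 2 in the report, was 5 with arrays brought to 1 spread, 6 after quantile normalization, 6 with the array month as a block (correlation -0.117), 1 in preparations 1 and 2 alone (srh-277) and 1 in preparations 3 and 4 alone (srh-275). With 1 preparation left out it was 0 to 1, and the 1 gene was srh-275 without preparation 2 and srh-200 without preparation 4. On the low side it was 1 at probe level and 0 otherwise. For sri, 1 gene (sri-20) was higher with scaled and 1 with quantile-normalized arrays, and 0 otherwise. The shares of all features called in these fits are not given here, and fits on fewer preparations hold less data. These counts, and those of the other families and lists, are therefore not read as changes particular to them. The genes srh-141 and srh-200 were both called with scaled, quantile-normalized and deposited values, at probe level, with the block and with either other filter. The family medians stayed above 0, from 0.15 to 0.24 for srh and from 0.05 to 0.13 for sri. Of 388 values of 30 single genes under alternatives, 358 kept direction and side of the threshold. The other filters and the month block leave the means of these genes unchanged. Apart from srh-141 and srh-200, none of these genes was called to begin with. The 358 is therefore no measure of how robust the values are. Another 15 values changed sign, none of them past the threshold. Those were srh-102 (0.60 in preparations 3 and 4 alone, 0.34 without 2), srh-11 (-0.056 scaled, -0.055 with quantile normalization, -0.16 in 3 and 4 alone, -0.15 without 2), srh-142 (0.11 and 0.069 in 3 and 4 alone and without 2), srh-281 (-0.050 without 1), sri-38 (0.042 and 0.0043 in 3 and 4 alone and without 2), sri-45 (-0.36 in 1 and 2 alone, -0.31 without 3) and sri-51 (-0.074 in 1 and 2 alone, -0.033 without 3). With 1 preparation left out these genes ranged from -1.77 to 0.34 (srh-102), -0.15 to 0.20 (srh-11), -0.28 to 0.069 (srh-142), -0.050 to 0.11 (srh-281), -0.41 to 0.0043 (sri-38), -0.31 to 0.89 (sri-45) and -0.033 to 0.29 (sri-51). The cause was not tested. No paired analysis was possible because there is 1 group. Signal over background is unknown, so what it limits cannot be given.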
